A study of Mus musculus with 6 samples.

Results

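The genes described here carry fatty acids into the hepatocyte, burn them in mitochondria and peroxisomes, turn the product into ketone bodies, and build and store new fat. They were taken from a list of 43 mouse gene symbols, 26 of oxidation and ketogenesis and 17 of synthesis and uptake, and all 43 were among the 18018 mouse genes whose counts summed to 10 or more over the 6 libraries. The rule used function, name and that total. RNA came from tissue labelled liver, of male athymic mice (BALB/c nu/nu, otherwise wild-type), in which cells of the human hepatocellular carcinoma (HCC) line QGY-7703 had been placed in the liver at an age of 6 weeks. At 1 week after implantation the mice received adeno-associated virus AAV8 through the tail vein, carrying either a control siRNA (siControl, 3 libraries) or an siRNA against Aatf (siAATF, 3 libraries), and they were followed for another 3 weeks. All animals therefore carried a tumor and a virus, and an animal with neither was not analysed here. The siRNA was expressed from the TBG promoter, which is active in hepatocytes, so the groups model silencing in those cells and not in the other cells of the tissue. Whether each library was 1 mouse or a pool is not given in the sources used here, and the p-values measure only the spread between these libraries.

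A long-chain fatty acid is taken up by transport proteins, held by a binding protein in the cytosol and joined to coenzyme A by an acyl-CoA synthetase. Carnitine carries it across the mitochondrial membranes, a spiral of dehydrogenation, hydration, a second dehydrogenation and cleavage then shortens it to acetyl-CoA, and in the fasted liver much of this leaves as ketone bodies. In the fed liver, citrate is cleaved to acetyl-CoA, which is carboxylated, polymerised to palmitate, desaturated, elongated and esterified to triglyceride. Malonyl-CoA, the first product of synthesis, inhibits carnitine palmitoyltransferase 1, which sets the pathways against each other.

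The libraries of the groups differed in what they held before any gene is considered. Mouse genes took 0.778% to 1.93% of the gene counts in siControl (213022 to 913584 counts) and 97.9% to 99.0% in siAATF (11835898 to 42563694 counts), the rest being human. Which piece of each liver, tumor or surrounding tissue, went into a library is not given in the sources used here, so a difference in the piece sampled and an effect of the siRNA cannot be told apart in any fold change below. Levels are given as counts per 1000000 (CPM) of the effective library size, which is the mouse total times a normalization factor. On that scale 1 mouse count in a siControl library was worth 0.558 to 2.42 CPM, and in a siAATF library 0.0345 to 0.202 CPM. A gene without counts could still reach 1.67 to 7.25 CPM in siControl, against 0.104 to 0.605 CPM in siAATF. Such limits cover counting error only. Genes of the mitochondrial genome took 4.04%, 10.5% and 6.91% of the mouse counts in siControl replicates 1, 2 and 3, against 25.7%, 56.1% and 20.8% in those of siAATF. Hepatocyte markers (15 genes, none of them a member) took 1.47% to 3.44% of mouse counts in siControl and 2.07% to 8.71% in siAATF, and 14 of the 15 were called higher. Albumin (Alb), the defining hepatocyte gene, had 3081, 438 and 2033 counts against 1226290, 61950 and 593091. One marker, Trf (transferrin), held 48.1%, 58.7% and 58.8% of the marker counts in siControl against 15.5%, 14.5% and 26.6% in siAATF, and it was the marker not called. Macrophage markers took 0.303% to 0.826% against 0.00479% to 0.0115%, with 8 of 8 called lower, and fibroblast and stellate markers 1.50% to 2.45% against 0.0161% to 0.0358%, with 6 of 7 lower. Endothelial markers took 0.0737% to 0.106% against 0.00302% to 0.0117%, with 4 of 6 lower. Of cholangiocyte markers 2 of 5 were lower, and of 3 muscle and 5 erythroid markers 0 were called. Fewer cells of a type and less RNA per cell cannot be told apart in such bulk RNA, and the part of cell composition in the results was not tested. The target Aatf had 12, 1 and 23 counts in siControl against 384, 109 and 340 in siAATF. Its log2 fold change was 0.93 (standard error 0.47, adjusted p = 0.152), so it was not called lower in the libraries labelled siAATF. Scaled by the total mouse count it was -0.91 (adjusted p = 0.176), by the hepatocyte markers -1.88 and called lower, and by all human and mouse gene counts 5.04 and called higher, so the direction of the target rests on the scaling. Every direction below is that of the libraries labelled siAATF against those labelled siControl.

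Before the values, the sequence just upstream of 2 genes on which the results turn is shown, 1 from each side. Scd1 and Scd2 encode stearoyl-CoA desaturases and lie 87590 bases apart on chromosome 19. Their RNAs moved in opposite directions, and the window of Scd1, the one that rose, is printed. Fabp1, the liver fatty acid binding protein, held more RNA per length than any other member in both groups. Each window is the 250 bases before the annotated start of the gene's main transcript, read 5′ to 3′ on the gene's own strand from build GRCm39, with capitals for a CCAAT box (CCAAT), a GC box (GGGCGG) or a sterol regulatory element (TCACNCCAC, N being any base), each searched on both strands. The main transcript of Scd1 starts just upstream of the deposited gene model.
Scd1, chr19:44396341-44396590, minus strand: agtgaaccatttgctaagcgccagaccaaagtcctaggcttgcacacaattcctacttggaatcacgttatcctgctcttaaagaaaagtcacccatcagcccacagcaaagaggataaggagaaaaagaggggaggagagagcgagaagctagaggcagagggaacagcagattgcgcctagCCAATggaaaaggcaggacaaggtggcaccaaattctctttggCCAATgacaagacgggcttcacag
Fabp1, chr6:71176559-71176808, plus strand: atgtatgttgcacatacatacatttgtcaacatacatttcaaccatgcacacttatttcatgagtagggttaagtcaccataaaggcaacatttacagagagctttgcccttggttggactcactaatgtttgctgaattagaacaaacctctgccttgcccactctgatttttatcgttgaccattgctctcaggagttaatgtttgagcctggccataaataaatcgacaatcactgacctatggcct
The Scd1 window held 2 CCAAT boxes, with 49.6% G and C and 5 CpG, while the Fabp1 window held none of the 3 motifs, with 40.0% G and C and 2 CpG. The sterol regulatory element, the letters read by the regulator that Srebf1 encodes, was found upstream of 3 of the 17 synthesis genes and 1 of the 26 oxidation genes, against 1.12% of the 21770 protein-coding genes searched. A GC box was found upstream of 15 of 26 oxidation genes and 5 of 17 synthesis genes, against 36.3% of all, and a CCAAT box upstream of 9 and 3, against 36.5%. The hexamer AGGTCA, the half-site that nuclear receptors such as PPAR alpha read, was in 5 and 6 windows, against 13.1%. The Fabp1 window held 1 such hexamer, on the opposite strand and not in capitals, and the Scd1 window held 0. Exact pairs of this hexamer repeated 1 base apart were in 0 of the 43, against 0.0367%, and inexact pairs were not searched. A match is a string of letters in this window, not a site shown to be bound, and where none was found only these letters were absent from this window.

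After trimmed mean of M-values (TMM) normalization, most of the members were higher in siAATF, on both sides of fat metabolism. A gene was called at an adjusted p under 0.05 from the quasi-likelihood test of edgeR, adjusted by the method of Benjamini and Hochberg over all 18018 mouse genes. Of the 26 oxidation and ketogenesis genes, 24 were called higher and 0 lower, and of the 17 synthesis and uptake genes, 13 were called higher and 1 lower. Over all genes tested, 17.6% were called higher and 14.4% lower. The median log2 fold change was 2.22 on either side, against 0.50 over all genes, so relative to the typical gene the members stood 1.72 higher. In 37 of the 43 all siAATF libraries lay above all those of siControl, where 34.5% of all genes were so placed, and in 1, Scd2, every siAATF library was below, against 18.1%. The 5 members not called were Cpt1a, Acadvl, Acly, Me1 and Cd36. Without siControl replicate 3, which held the most mouse counts of its group, 15 oxidation and 10 synthesis genes were called higher, and the share over all genes fell too, to 9.08%.

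These counts depended on what a library was scaled to. With each library divided by its total mouse count alone, 7 oxidation genes were called higher and 0 lower, and 5 synthesis genes higher and 2 lower, while over all genes 4.15% were called higher and 40.3% lower. With the mitochondrial genome and rRNA genes left out of that total, 11 oxidation genes were higher and 0 lower, and 8 synthesis genes higher and 2 lower, against 6.44% and 27.5% of all genes. Scaled to the summed hepatocyte markers, 2 oxidation genes were higher and 4 lower (Acadl, Acadvl, Hadhb and Acsl5), and 1 synthesis gene higher and 3 lower (Acly, Scd2 and Cd36), against 1.36% and 53.6% of all genes. On that last scale the medians were -0.75 for oxidation and -0.87 for synthesis, against -2.48 over all genes. The hepatocyte scale measures a gene against the sum of the markers, in which Trf weighs most in siControl, and on it Trf stood at -1.55 and Alb at 1.06. With Trf left out of the sum, an alternative chosen after seeing the data, 0 members were higher, 13 oxidation and 9 synthesis genes were lower, against 0.627% and 65.2% of all genes, and the medians were -1.65 and -1.81, against -3.39 over all genes. Fold changes given below for the hepatocyte scale include Trf unless stated. TMM thus gave more rises than these 4 scalings. A change of scaling moves all genes together, so it could do little to the distance of the member medians from the all-gene median. Over the alternatives tried that distance ran from 1.18 to 2.25 for oxidation and from 1.15 to 2.32 for synthesis. The lowest values came with no filter beyond 1 count and the highest with another test, limma-voom.

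**Figure D1:**
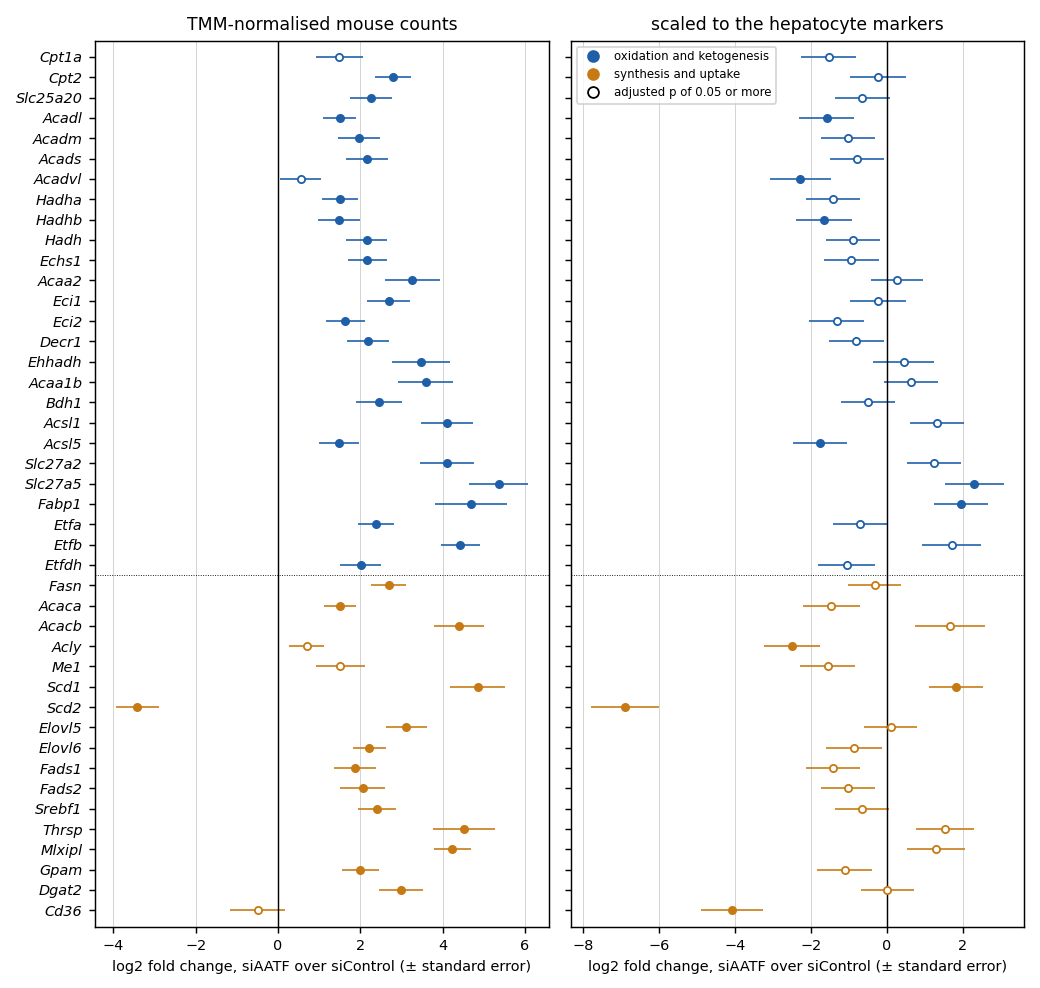
Fitted log2 fold change of each member, siAATF over siControl, with its standard error as a horizontal line, on TMM-normalised mouse counts (left) and scaled to the hepatocyte markers (right). Blue points are oxidation and ketogenesis genes, orange points synthesis and uptake genes, and open points had an adjusted p of 0.05 or more. On the left 37 points are filled to the right of 0, on the right 3.

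Uptake and activation genes rose most among the oxidation genes, with 5 of 5 called higher and a median of 4.12. Slc27a5, a fatty acid and bile acid CoA ligase of the liver, had 25, 2 and 12 counts in siControl against 17322, 871 and 10833 in siAATF. Its TMM-normalised CPM went from 10.5 ± 8.31 to 458 ± 245 (SD, n = 3 each). The log2 fold change was 5.36 (standard error 0.72, adjusted p = 0.000181), the largest of the 43. All 3 siAATF libraries were far above all 3 siControl libraries. Fabp1, which binds fatty acids in the cytosol, had 332, 13 and 160 counts in siControl against 147937, 11688 and 46634 in siAATF, or 129 ± 123 against 3350 ± 1524 CPM (SD, n = 3 each). Its log2 fold change was 4.68 (standard error 0.87, adjusted p = 0.00139). Slc27a5 and Fabp1 were the oxidation genes still called higher on the hepatocyte scale, by 2.30 and 1.94, though without Trf in that scale they stood at 1.48 and 1.08 and were not called. Slc27a2, a transporter of very long chains, and Acsl1, the main acyl-CoA synthetase of liver, rose by 4.12 and 4.11. Acsl5, another synthetase, rose least of the 5, by 1.48 (standard error 0.49, adjusted p = 0.0357), from 95, 19 and 135 counts to 8412, 424 and 3292. On the hepatocyte scale Acsl5 was called lower, at -1.77, so members of this one role were called in opposite directions on that scale. Acsl5 shares 167 exon bases with Zdhhc6 on the opposite strand, a gene with 4132 counts in all against 12377 for Acsl5.

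**Figure D2:**
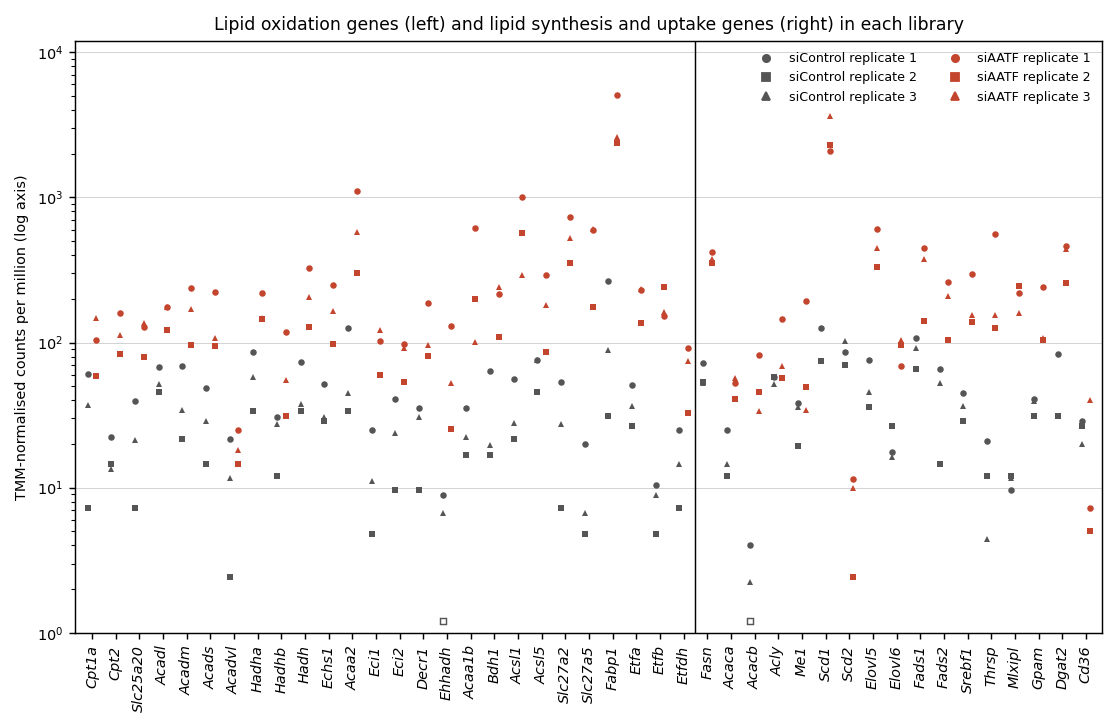
TMM-normalised counts per 1000000 of each member in each of the 6 libraries on a log axis, grey for siControl and red for siAATF, with a symbol shape for each replicate number and an open symbol at the lower edge for a library with 0 counts. Red symbols lie above grey ones for most genes, Scd2 is the reverse, and the symbols of Cpt1a, Acadvl, Acly, Me1 and Cd36 overlap.

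In the carnitine shuttle, 2 of 3 genes were called. Cpt1a, the liver form of carnitine palmitoyltransferase 1 and the step held to control the flow into mitochondria, had 75, 3 and 67 counts in siControl against 3033, 290 and 2671 in siAATF. In CPM these were 60.2, 7.25 and 37.4 against 105, 58.5 and 148. The groups overlapped, since siControl replicate 1 lay just above siAATF replicate 2, and the log2 fold change, 1.49 (standard error 0.57, adjusted p = 0.0629), was not called. It was called higher with DESeq2 (adjusted p = 0.0401), with no filter beyond 1 count (0.00244), with a replicate block (0.000317), scaled by all gene counts (2.93e-10), and without siControl replicate 1 (0.0372) or siAATF replicate 2 (0.0172). On the hepatocyte scale it stood at -1.53 (0.0604), not called, and with Trf left out of that scale it was called lower, at -2.39 (0.00392). Cpt2, which takes carnitine off again on the inner membrane, had 28, 6 and 24 counts against 4634, 410 and 2018 and rose by 2.80 (standard error 0.44, adjusted p = 0.000474). Slc25a20, the carnitine and acylcarnitine exchanger between them, rose by 2.26 (adjusted p = 0.00453).

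The first dehydrogenation of the spiral is made by enzymes that differ in the chain length they take. Acads (short chains) had 61, 6 and 52 counts in siControl against 6499, 470 and 1950 in siAATF and rose by 2.15 (standard error 0.51, adjusted p = 0.00639), Acadm (medium) rose by 1.97 and Acadl (long) by 1.50. Acadvl, which takes very long chains, had 27, 1 and 21 counts in siControl against 728, 72 and 328 in siAATF, or 21.7, 2.42 and 11.7 against 25.1, 14.5 and 18.2 CPM. Its groups overlapped, and its log2 fold change, 0.55 (standard error 0.50, adjusted p = 0.414), was the smallest of the 26. Acadl and Acadvl were called lower on the hepatocyte scale, at -1.59 and -2.28. Acadvl shares 976 exon bases with Dvl2 on the opposite strand, a gene with 256 counts in all against 1177 for Acadvl. Use of strand in the counting is not given in the sources used here. Electrons from these enzymes pass through the flavoprotein Etfa and Etfb to Etfdh. Etfb, the smaller subunit, had 13, 2 and 16 counts against 4391, 1202 and 2944 and rose by 4.43 (standard error 0.48, adjusted p = 5.6e-05). Its partner Etfa rose by 2.38 and Etfdh by 2.01 (31, 3 and 26 counts against 2653, 161 and 1353, standard error 0.50, adjusted p = 0.00851). The subunits of one complex thus had fitted changes 2.05 apart on the log2 scale, a difference that was not itself tested. Etfb shares 617 exon bases on its own strand with the gene model Etfbl, which had 0 counts.

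Genes of the later steps were all called higher, 5 of 5. Hadha and Hadhb encode the subunits of the mitochondrial trifunctional protein and start 85 bases apart on chromosome 5, facing away from each other. Hadha had 107, 14 and 104 counts in siControl against 6376, 722 and 2657 in siAATF (log2 fold change 1.50, standard error 0.44, adjusted p = 0.02). Hadhb had 38, 5 and 49 against 3408, 155 and 997 (log2 fold change 1.48, standard error 0.52, adjusted p = 0.0443), close to that of its partner. Hadh and Echs1, the dehydrogenase and hydratase for shorter chains, rose by 2.15 and 2.17. Acaa2, the thiolase that cleaves off acetyl-CoA, rose most of this role. Its counts were 157, 14 and 80 in siControl against 32207, 1483 and 10389 in siAATF (log2 fold change 3.26, standard error 0.67, adjusted p = 0.00269). For unsaturated chains, which need extra isomerase and reductase steps, Eci1 had 31, 2 and 20 counts against 2970, 296 and 2196 and rose by 2.69 (standard error 0.52, adjusted p = 0.00176). Decr1 rose by 2.18, and Eci2, with 51, 4 and 43 counts against 2819, 267 and 1663, by 1.63 (standard error 0.47, adjusted p = 0.0191). None of these 3 was called on the hepatocyte scale. With Trf left out of that scale, Eci2 (-2.21, adjusted p = 0.00834) and Decr1 (-1.72, 0.038) were called lower, and Eci1 (-1.09, 0.219) was not called.

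In peroxisomes, which shorten very long chains, Ehhadh had 11, 0 and 12 counts in siControl against 3762, 125 and 956 in siAATF, and rose by 3.48 (standard error 0.71, adjusted p = 0.00243). Acaa1b, a peroxisomal thiolase, had 44, 7 and 40 counts against 17781, 994 and 1820 and rose by 3.58 (standard error 0.67, adjusted p = 0.0015). Its siAATF values of 614, 200 and 101 CPM were spread 6.08-fold. Acaa1b and its copy Acaa1a share 22.6% of the 100-base stretches of the Acaa1b transcript, and whether this lowered its count was not tested. Bdh1, which makes 3-hydroxybutyrate from acetoacetate, had 79, 7 and 35 counts against 6223, 538 and 4352 and rose by 2.46 (standard error 0.56, adjusted p = 0.00506).

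On the synthesis side, the 3 genes that make malonyl-CoA and palmitate were called higher. Fasn had 90, 22 and 94 counts in siControl against 12110, 1751 and 6801 in siAATF (log2 fold change 2.69, standard error 0.43, adjusted p = 0.000563). Its levels of 418, 353 and 377 CPM in siAATF and 72.3, 53.1 and 52.4 CPM in siControl lay close together within each group. Acaca, the cytosolic acetyl-CoA carboxylase that feeds Fasn, had 31, 5 and 26 counts against 1525, 201 and 1020 and rose by 1.50 (standard error 0.39, adjusted p = 0.0106). Acaca (chr11:84063948-84292477, plus strand) is separated from the siRNA's target Aatf (chr11:84313681-84404348, minus strand) by 21203 bases, with no exon base in common with it or any other gene of the table. Acacb, the carboxylase at the mitochondrial surface whose malonyl-CoA inhibits Cpt1a, had 5, 0 and 4 counts against 2391, 225 and 613. Its log2 fold change, 4.40 (standard error 0.60, adjusted p = 0.000205), rests on 9 siControl counts in all, the only member with fewer than 10. Within a library, Acacb relative to Acaca, per kilobase of gene length, was -2.52 and -2.59 on the log2 scale in siControl replicates 1 and 3 and 0.76, 0.28 and -0.62 in siAATF. The siControl libraries thus held mainly Acaca and the siAATF libraries about as much of either.

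The precursor genes were not called. Acly, which cleaves citrate to cytosolic acetyl-CoA, had 57.8, 58.0 and 51.9 CPM in siControl and 144, 56.9 and 69.2 in siAATF, overlapping, with a log2 fold change of 0.70 (72, 24 and 93 counts against 4183, 282 and 1247, standard error 0.43, adjusted p = 0.237). Me1, malic enzyme, a source of NADPH, had 48, 8 and 64 counts against 5565, 246 and 616, and its 192, 49.6 and 34.2 CPM in siAATF reached down into the siControl range of 19.3 to 38.5. Its log2 fold change was 1.52 (standard error 0.61, adjusted p = 0.0747). On the hepatocyte scale Acly was called lower, at -2.51, and Me1, at -1.56, was not called. With Trf left out of that scale Me1 was called lower too, at -2.51 (adjusted p = 0.00272). The fitted change of Acly was below those of Fasn and both carboxylases, a difference that was not itself tested.

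Desaturation and elongation held the widest contrast of the 43. Scd1, the desaturase that makes oleate in liver, had 158, 31 and 134 counts in siControl against 60442, 11296 and 65777 in siAATF. In CPM these were 127, 74.9 and 74.7 against 2086, 2278 and 3649 (log2 fold change 4.85, standard error 0.66, adjusted p = 0.000197). It was the synthesis gene still called higher on the hepatocyte scale, by 1.81, though without Trf in that scale it stood at 0.90 and was not called. Scd2, a desaturase of many tissues other than adult liver, had 108, 29 and 185 counts against 330, 12 and 179. Although siAATF libraries held at least 12.96 times the mouse counts of any siControl library, Scd2 was at 86.7, 70.1 and 103 CPM in siControl and 11.4, 2.42 and 9.93 in siAATF, and it fell by 3.42 on the log2 scale (standard error 0.52, adjusted p = 0.000376). It stood above 0, at 0.89, in 1 alternative, with each library scaled to its human and mouse counts together. Within each library the log2 ratio of Scd1 to Scd2 per kilobase was 0.72, 0.27 and -0.29 in siControl and 7.69, 10.1 and 8.70 in siAATF. The siControl libraries thus held near equal amounts of the pair and the siAATF libraries almost Scd1 alone, and this ratio needs no scaling between libraries. Only 0.975% of 100-base stretches of Scd1 were identical in Scd2. Elovl5 and Elovl6, which lengthen polyunsaturated and saturated chains, rose by 3.12 and 2.22, and the desaturases of polyunsaturated chains Fads1 and Fads2 by 1.87 and 2.06.

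All 3 regulators were called higher, and 2 of them had larger fitted changes than any enzyme of synthesis except Scd1 and Acacb. Mlxipl, the carbohydrate response factor ChREBP, had 12, 5 and 21 counts in siControl against 6327, 1211 and 2882 in siAATF and rose by 4.23 (standard error 0.45, adjusted p = 5.34e-05). Thrsp (Spot 14), a lipogenic gene that responds to thyroid hormone and carbohydrate, had 26, 5 and 8 counts against 16147, 625 and 2790 and rose by 4.51 (standard error 0.75, adjusted p = 0.000727). Its siAATF values of 557, 126 and 155 CPM were uneven, with replicate 1 high. Srebf1, which encodes SREBP-1, had 56, 12 and 65 counts against 8648, 686 and 2774 and rose by 2.40 (standard error 0.46, adjusted p = 0.00158). It shares 216 exon bases with Rai1 on the opposite strand, a gene with 473 counts in all against 12241 for Srebf1. On the hepatocyte scale none of the 3 was called, with Mlxipl at 1.30, Thrsp at 1.52 and Srebf1 at -0.67.

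Of the glycerolipid genes, Dgat2, which makes the last bond of triglyceride, had 103, 13 and 56 counts against 13393, 1277 and 8007 and rose by 2.98 (standard error 0.54, adjusted p = 0.00115). Gpam, which makes the first bond, had 51, 13 and 71 against 6959, 517 and 1934 and rose by 2.00 (standard error 0.45, adjusted p = 0.00477). Cd36, a fatty acid translocase of macrophages, endothelium, fat and muscle that is low in normal hepatocytes, had 36, 11 and 36 counts in siControl against 210, 25 and 725 in siAATF. At 28.9, 26.6 and 20.1 against 7.25, 5.04 and 40.2 CPM, siAATF replicates 1 and 2 lay below and replicate 3 above all siControl libraries. The log2 fold change, -0.49 (standard error 0.66, adjusted p = 0.591), was not called. Without siAATF replicate 3 it was -1.92 (adjusted p = 0.00246) and called lower, so this 1 library decides the call. It was also called lower on the hepatocyte scale, at -4.09, by the total mouse count, at -2.33, and by that total without mitochondrial genome and rRNA genes, at -1.94, and called higher by all gene counts, at 3.73. Macrophage and endothelial markers, given above, had median log2 fold changes of -4.26 and -2.64, and -7.16 and -5.92 on the hepatocyte scale, and their part in the Cd36 values was not tested.

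The order of the members by level per length also differed between the groups. In RPKM, read counts divided by gene length and effective library size, Fabp1 was first in both, at 233 ± 222 in siControl and 6057 ± 2756 in siAATF (SD, n = 3 each). Scd1 moved from rank 10 to 2, Thrsp from 24 to 4, Etfb from 26 to 5 and Slc27a5 from 38 to 6, while Scd2 moved from 13 to 43, the last place. Scd1 at 553 ± 176 and Acaa2 at 437 ± 272 RPKM, ranks 2 and 3 in siAATF, did not differ beyond their spread. Of all counts on the 26 oxidation genes, Fabp1 alone took 18.2%, 6.77% and 11.2% in siControl and 40.4%, 41.2% and 35.1% in siAATF. Scd1 took 14.0%, 13.1% and 10.9% of the counts on the 17 synthesis genes in siControl and 33.9%, 52.1% and 56.7% in siAATF.

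Summed over each side, the oxidation genes gave 2596, 901 and 1565 counts per 1000000 mouse counts in siControl and 8595, 2399 and 3804 in siAATF. The groups overlapped here, because siAATF replicate 2 lay below siControl replicate 1, and it was in that siAATF library that the mitochondrial genome took the largest share. As counts per 1000000 mouse counts outside the mitochondrial genome and rRNA genes, the sums were 2732, 1054 and 1694 against 12099, 6785 and 4883, which did not overlap. The synthesis genes gave 1602, 1113 and 1343 counts per 1000000 mouse counts against 4193, 1832 and 3315, again without overlap. Per 1000 hepatocyte marker counts the picture differed, with oxidation at 75.4 ± 14.2 in siControl and 90.5 ± 40.6 in siAATF, and synthesis at 66.3 ± 17.1 and 60.4 ± 25.7 (SD, n = 3 each). On that scale both sides overlapped between the groups. Without Trf among the markers, oxidation was at 170 ± 40.8 in siControl and 109 ± 43.1 in siAATF, and synthesis at 153 ± 54.7 and 73.3 ± 26.9 (SD, n = 3 each). The order of the oxidation means thus turned with this 1 marker, and without it all siAATF libraries lay below all siControl libraries for oxidation, while synthesis still overlapped. The log2 ratio of oxidation to synthesis counts within a library was 0.70, -0.30 and 0.22 in siControl and 1.04, 0.39 and 0.20 in siAATF. The means of 0.20 ± 0.50 and 0.54 ± 0.44 differed by less than the spread between replicates. What this ratio showed depended on how the genes were weighted. Without Fabp1 and Scd1, the members with the most counts on each side, it was 0.62, -0.20 and 0.22 in siControl and 0.88, 0.69 and 0.78 in siAATF, without overlap. The mean log2(CPM + 1) of the oxidation genes minus that of the synthesis genes was 0.12, -0.87 and -0.19 against 0.42, 0.21 and 0.27, again without overlap. Per kilobase of gene length the log2 ratio was 2.13, 0.91 and 1.54 against 2.80, 2.45 and 2.12, and siAATF replicate 3 lay just below siControl replicate 1. No p is given for these sums, since they are scores over chosen genes, and 3 libraries against 3 allow no exact permutation p under 0.1.

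**Figure D3:**
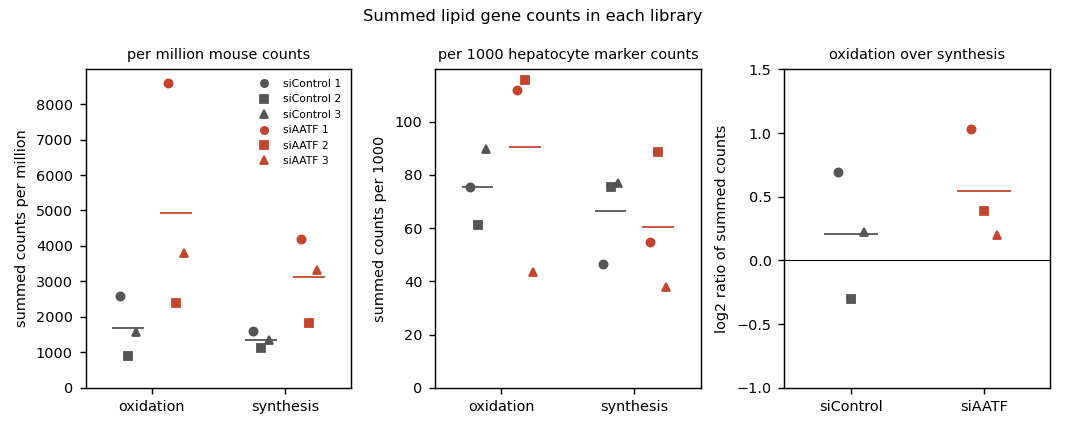
Counts summed over the 26 oxidation and 17 synthesis genes in each library (points, grey siControl and red siAATF) with the group mean as a bar, as counts per 1000000 mouse counts (left), per 1000 hepatocyte marker counts (middle) and as the log2 ratio of oxidation to synthesis (right). The groups lie apart for synthesis on the left and overlap in the middle and on the right.

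In siControl the 43 members together had 82.5, 15.8 and 50.0 counts per 1000000 human counts and 4199, 2014 and 2908 counts per 1000000 mouse counts. They varied 5.22-fold against the human and 2.08-fold against the mouse total. Whether any of these counts came from human RNA was not tested, and these values cannot tell the sources apart.

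Other genes of the same pathways, were counted in lists chosen by function, to be read against the 17.6% called higher and 14.4% called lower over all genes. The medians of these 7 lists ran from 1.03 (triglyceride assembly and droplets) to 2.86 (peroxisomal) on the TMM scale, against 0.50 over all genes, and from -2.21 to 0.07 on the hepatocyte scale, against -2.48. Of 22 peroxisomal genes tested, 16 were higher and 0 lower. Among those called, Hacl1, which removes 1 carbon from branched chains, rose most, with 1, 1 and 0 counts against 2051, 81 and 542. Of 26 other mitochondrial oxidation genes, 14 were higher and 3 lower, from Acsm5, a medium-chain synthetase (4, 0 and 0 counts against 2293, 432 and 1003), to Acot9, a thioesterase, which fell by 3.28. Of 7 genes of ketone metabolism, 4 were higher and 1 lower. Oxct1, the enzyme by which other tissues burn ketones, fell by 2.63 (standard error 0.39, adjusted p = 0.000339). Bdh2 rose most of the list, by 3.16, from 0, 0 and 5 counts. Hepatocytes are known to lack Oxct1 activity.

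Ppara, the nuclear receptor that drives fatty acid oxidation in the fasted liver, had 5, 1 and 5 counts in siControl against 1863, 1018 and 1272 in siAATF and rose by 5.14 (standard error 0.64, adjusted p = 0.000112). Its list of 17 tested genes was mixed, with 7 higher and 3 lower. Fabp2, the intestinal fatty acid binding protein, was called higher with 2, 0 and 2 counts against 2603, 123 and 999, as was the coactivator Ppargc1a with 1 count in each siControl library and 399, 64 and 172 in siAATF. Ucp2, a mitochondrial carrier abundant in macrophages, fell by 3.53, and the hormone Fgf21 (4, 0 and 0 counts against 27, 1 and 23) was not called, with a log2 fold change of -0.49 (adjusted p = 0.802). Of 20 genes of supply and control of lipogenesis, 10 were higher and 2 lower. Ppp1r3c, a glycogen-targeting phosphatase subunit, rose by 5.09 (0, 1 and 8 counts against 5192, 275 and 368), and G6pdx, which makes NADPH, fell by 2.75. Srebf2, the regulator of sterol synthesis, had 70, 20 and 117 counts against 1553, 184 and 1277 and a log2 fold change of -0.08 (adjusted p = 0.892), and Pparg one of -0.06 (adjusted p = 0.957). The sign of these small changes turned under some alternatives. Of 12 other elongases and desaturases, 6 were higher and 1 lower, between Elovl3, at 3, 0 and 1 counts against 48791, 2722 and 2775, and Fads3, which fell by 1.43. Of 34 genes of triglyceride assembly and lipid droplets, 12 were higher and 5 lower, between Fitm1, a droplet protein (3, 0 and 1 counts against 1253, 299 and 644), and Hilpda, a hypoxia-induced droplet protein, which fell by 3.91. Pnpla3, with 5, 0 and 9 counts in siAATF and 0 in all of siControl, was not called.

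Adipocytes also make fat, and their markers were uneven. Of 9 adipocyte markers, 4 (Adipoq, Plin1, Lep and Retn) had fewer than 10 counts in all 6 libraries together. The only one called, Fabp4, which is also made by macrophages and endothelium, had 158, 62 and 386 counts in siControl against 504, 22 and 265 in siAATF and fell by 3.73. The lipase Lipe, with 7, 1 and 20 counts against 358, 62 and 190, was not called. The summed list took 0.0257% to 0.0453% of mouse counts in siControl and 0.000963% to 0.00275% in siAATF, and Fabp4 made up 158 of 181, 62 of 67 and 386 of 414 of its counts in siControl. The fatty acid binding proteins went opposite ways, the log2 ratio of Fabp1 to Fabp4 per kilobase being -0.12 ± 1.71 in siControl and 8.93 ± 0.80 in siAATF (SD, n = 3 each).

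**Figure D4:**
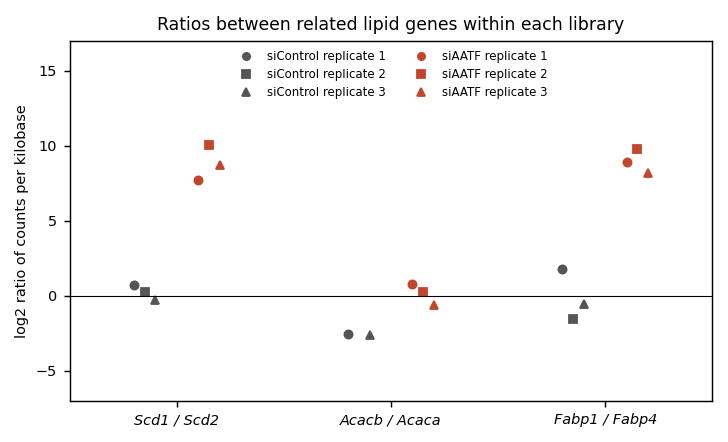
Log2 ratio of counts per kilobase of gene length between related genes in each library, grey for siControl and red for siAATF, for pairs chosen after their values were seen. The red points are above the grey in all 3 pairs, and Acacb over Acaca lacks siControl replicate 2, which had 0 Acacb counts.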

How the data were processed

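RNA was sequenced from 6 libraries prepared by SMART-Seq, in which cDNA is amplified by PCR. Per the submitters' processing notes the tools were STAR 2.7.11, featureCounts 2.0.1, DESeq2 1.42.0 and R 4.3.2. The authors aligned reads to a joined human and mouse genome (GRCm39), dropped reads with several placements or a placement in both species, and deposited raw gene counts for each species without normalization. Whether counting used strand is not given in the sources used here. They counted on GENCODE release 33. Names came from release 39, which held 56323 of 56884 mouse identifiers, with 561 unnamed. The human table gave totals only, with 1 gene broken over 3 lines left out. Count columns were matched to samples by name, with 0 left unassigned.

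The mouse counts were tested with edgeR 4.0.16 in R 4.3.3, by its quasi-likelihood test with TMM normalization, a total of at least 10 counts, the group as the only term and Benjamini-Hochberg adjustment over all genes. Alternatives were RLE and upper-quartile normalization, scaling by the total mouse count, by all gene counts or by 15 hepatocyte markers, other filters, thinning, limma-voom 3.58.1, DESeq2 1.42.0, a replicate block, other call rules and leaving out each library. Fits without mitochondrial genome and rRNA genes, and with Trf left out of the hepatocyte markers, were added after the data were seen. Promoter windows came from the GRCm39 genome and release 39.

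The members and lists were chosen with earlier results of these data known. Full values are given for Cpt1a, Fasn, Acaca, Acacb, Scd1, Srebf1, Mlxipl, Thrsp, Fabp1, Cd36 and Hadha and for the highest and lowest fold change of each role, and for other lists the largest rise and fall among called genes and a set of named regulators. Some genes of the latter set and some promoter windows are not reported here. Other names, and the pairs of genes compared as ratios, were chosen after values were seen. Plots used Python 3.11.15 and matplotlib 3.10.9.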

Additional observations from a re-analysis of the deposited data

How the results depend on the processing

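Of 879 comparisons of a member's log2 fold change with an alternative, 689 kept their direction and their side of the threshold, 97 lost the call, 18 gained it and 75 changed sign, the last all from scaling or thinning. Leaving out 1 library changed the sign of no member, lost 23 calls and gained 5.

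Oxidation genes called numbered 24 in the main test, 7 scaled by the total mouse count, 11 by that total without mitochondrial genome and rRNA genes, 6 by the hepatocyte markers, 13 by those markers without Trf (all lower), 8 with at least 10 counts in every library (8 tested), 15 with all libraries thinned to the smallest total, and 15 to 25 with 1 library left out. Synthesis genes called numbered 14, then 7 by the total mouse count, 4 by the hepatocyte markers, 9 by those without Trf (all lower), 9 with at least 10 counts in every library (11 tested) and 11 to 16 with 1 library left out. All mouse genes called numbered 5762, then 9894 by the hepatocyte markers, 11859 by those without Trf and 15830 by all gene counts. They numbered 1745 with at least 10 counts in every library (3552 tested), 3004 thinned (9653 tested) and 3333 to 6088 with 1 library left out. The lowest of these came without siControl replicate 3. Scaling by all gene counts called 26 oxidation and 16 synthesis genes higher. The difference between groups in the log2 ratio of oxidation to synthesis was 0.34, 0.57 without Fabp1 and Scd1, 0.61 as a mean of log2(CPM + 1), 0.93 per kilobase of gene length, and 0.08 to 0.58 with 1 library left out. Higher calls made up 55.0% of all calls in the main test, 44.8% with upper-quartile normalization, 45.0% with limma-voom, 40.6% thinned, 9.33% by the total mouse count, 19.0% by that total without mitochondrial genome and rRNA genes, 2.48% by the hepatocyte markers, 0.953% by those without Trf and 99.3% by all gene counts.

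Scaled by the total mouse count, the log2 fold change turned negative for Cpt1a (-0.24), Acadl (-0.27), Acadvl (-1.16), Hadha (-0.23), Hadhb (-0.17), Eci2 (-0.091), Acsl5 (-0.20), Acaca (-0.27), Acly (-0.9997) and Me1 (-0.093). Without mitochondrial genome and rRNA genes in that total it did so for Acadvl (-0.57) and Acly (-0.46), and thinned for Acadvl (-0.27) and Acly (-0.26). Scaled by the hepatocyte markers it did so for Cpt1a (-1.53), Cpt2 (-0.24), Slc25a20 (-0.65), Acadl (-1.59), Acadm (-1.04), Acads (-0.79), Acadvl (-2.28), Hadha (-1.42), Hadhb (-1.66), Hadh (-0.90), Echs1 (-0.94), Eci1 (-0.24), Eci2 (-1.33), Decr1 (-0.81), Bdh1 (-0.49), Acsl5 (-1.77), Etfa (-0.71), Etfdh (-1.06), Fasn (-0.33), Acaca (-1.47), Acly (-2.51), Me1 (-1.56), Elovl6 (-0.87), Fads1 (-1.42), Fads2 (-1.02), Srebf1 (-0.67) and Gpam (-1.12), and without Trf among those markers for Cpt1a (-2.39), Cpt2 (-1.15), Acadl (-2.52), Acadm (-1.92), Acads (-1.69), Acadvl (-3.15), Hadha (-2.34), Hadhb (-2.58), Hadh (-1.80), Echs1 (-1.84), Eci1 (-1.09), Eci2 (-2.21), Ehhadh (-0.44), Acaa1b (-0.30), Acaa2 (-0.60), Bdh1 (-1.34), Acsl5 (-2.70), Decr1 (-1.72), Etfa (-1.62), Etfdh (-1.93), Slc25a20 (-1.52), Fasn (-1.26), Acaca (-2.36), Acly (-3.46), Elovl5 (-0.81), Elovl6 (-1.81), Srebf1 (-1.60), Me1 (-2.51), Gpam (-2.06), Dgat2 (-0.87), Fads1 (-2.34), Fads2 (-1.92), Ppargc1a (-0.088) and Bdh2 (-0.81). Scaled by all gene counts it turned positive for Scd2 (0.89), Cd36 (3.73), Srebf2 (4.17), Pparg (4.24), Fgf21 (3.62), Acot9 (0.99), Oxct1 (1.76), Ucp2 (0.75), G6pdx (1.51), Fads3 (2.89) and Hilpda (0.38), and with no filter beyond 1 count for Srebf2 (0.011) and Pparg (0.047). With 1 library left out, Srebf2 ran from -0.27 to 0.17, Pparg -0.50 to 0.43 and Fgf21 -1.29 to 6.22. Each scaling moves all genes together, by construction, and the other causes were not tested.

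Whether the replicate numbers pair the samples is not given by the labels. Same-numbered libraries had correlations of deviations of 0.10, 0.13 and -0.03, and differently numbered ones -0.19 to 0.14, which cannot decide it. With a replicate block, 25 oxidation and 14 synthesis genes were called higher, 1 synthesis gene lower, and 6766 of all genes. Depth limited the siControl side, where 42 of 43 members had at least 10 counts in all and 38 had fewer than 20 in replicate 2.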
